A study of Mus musculus with 3 samples.

Results

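C1q-high tumor macrophages are the barcodes of 2 melanoma libraries that carry the most RNA of the 3 complement C1q genes. A barcode, the tag of 1 droplet and read here as 1 cell, was kept if 1000 or more unique molecules (UMIs) and 400 or more genes were counted and mitochondrial genes gave no more than 10% of its UMIs. It was called C1q-high if C1qa, C1qb and C1qc together gave at least 10 UMIs and at least 0.5% of its UMIs. The rule took 1576 of the 8877 kept tumor barcodes, which were 140 of 4434 in the Treg-depleted tumor and 1436 of 4443 in the control tumor. The whole series held 14427 kept barcodes with those of control blood. The members were chosen by their measured C1q UMIs, so every C1q value below is a description and supports nothing.

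Both tumors were subcutaneous B16F10 melanomas, a mouse melanoma line, grown in C57BL/6J mice. The Treg-depleted library came from FoxP3 DTR mice, in which cells that express Foxp3 carry the diphtheria toxin receptor, and the control library came from WT mice. The allele and the depletion came together and cannot be told apart. Both tumors were digested and sorted for CD45+ cells that lacked CD90, NK1.1, Ly6G, B220 and SigF and carried CD11b, CD11c or both, then counted from the 3' end with droplet kits. Each group had 1 library, so no test between groups was possible, and the number of animals behind a library was not given in the labels.

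C1q is the recognition protein of the classical complement pathway. It binds antibody complexes and dying cells, and macrophages, rather than the liver, make most of it. In tumors, macrophages rich in C1q usually also carry Apoe, which codes for a lipid carrier, and Ms4a7, which codes for a membrane protein of macrophages. Monocytes that enter a tumor lose monocyte genes such as Ly6c2 as they acquire such macrophage genes.

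The 3 chains of C1q are coded side by side on the minus strand of chromosome 4. In the GENCODE M21 annotation of GRCm38, C1qb lies at chr4:136880129-136886187, C1qc at chr4:136889804-136893065 and C1qa at chr4:136895917-136898803. Of the other genes that marked these cells, Apoe lies at chr7:19696109-19699188 and Ms4a7 at chr19:11321039-11336146, both on the minus strand. C1qb gave the most UMIs of the 3 chains, and its promoter is shown because MAF and PU.1 factors are known regulators of macrophage genes and their RNA was measured in the same barcodes. The 250 bases before the RefSeq start of C1qb (GRCm38.p6, chr4:136886201-136886450, minus strand, written 5′ to 3′) hold 1 core of the MAF motif, TGCTGA, which begins 131 bases before the start, and 1 PU.1 core, GAGGAA, which begins 30 bases before it. Both are in capitals.
C1qb promoter: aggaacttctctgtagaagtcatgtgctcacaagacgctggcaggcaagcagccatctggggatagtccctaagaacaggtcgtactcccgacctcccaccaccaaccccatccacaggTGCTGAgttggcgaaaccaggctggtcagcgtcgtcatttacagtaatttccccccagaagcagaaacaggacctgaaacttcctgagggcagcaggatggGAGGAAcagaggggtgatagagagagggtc
Searched on both strands as TGCTGA or TCAGCA, the MAF core occurred in 16.1% of 32851 RefSeq promoter windows of the same length, and GAGGAA or TTCCTC occurred in 23.3%. The C1qc window held no MAF core and 1 PU.1 core, none of the Apoe and Ms4a7 windows held a MAF core, and the Ms4a7 windows held neither. These matches are letters in a window and were not tested as binding sites.

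C1q-high barcodes were 3.16% of kept barcodes in the Treg-depleted tumor (exact 95% interval 2.66 to 3.72%) and 32.3% in the control tumor (30.9 to 33.7%). The intervals do not overlap. They cover counting error only, not the difference between animals. Barcodes with C1q under 0.1% of UMIs, called C1q-low here, made up 69.5% (3083) of the Treg-depleted and 51.4% (2283) of the control barcodes. The remaining barcodes lay between, 27.3% (1211) in the Treg-depleted and 16.3% (724) in the control tumor.

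The C1q share of UMIs within C1q-high barcodes had a median of 0.636% (10th to 90th percentile 0.519 to 0.993%) in the Treg-depleted tumor and of 1.04% (0.597 to 1.96%) in the control tumor. The C1q-high barcodes of the Treg-depleted tumor therefore sat close to the threshold. Just inside it, between 0.5 and 0.6%, lay 52 Treg-depleted and 145 control barcodes, and just outside, between 0.4 and 0.5%, lay 106 Treg-depleted and 155 control barcodes. A further 8 Treg-depleted and 27 control barcodes passed 0.5% with fewer than 10 C1q UMIs and were not members. A stricter rule of 1% and 20 UMIs left 0.271% of Treg-depleted and 16.5% of control barcodes, and a looser rule of 0.25% and 5 UMIs took 13.2% and 41.8%, so the order of the 2 tumors held under both.

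**Figure D1:**
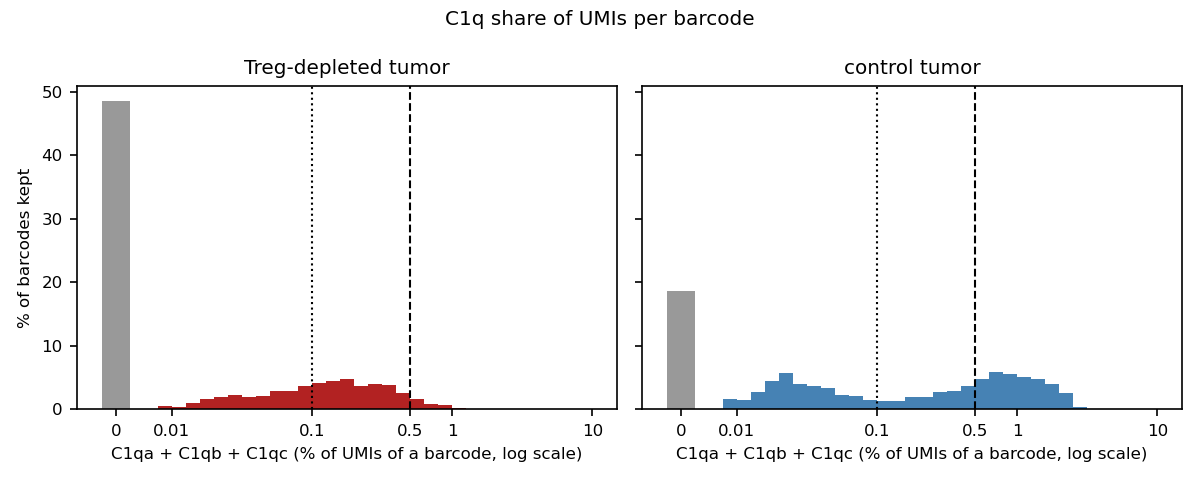
Share of the UMIs of a barcode that came from C1qa, C1qb and C1qc (horizontal axis, percent, log scale with barcodes at 0 in grey) against the percent of kept barcodes (vertical axis) in the Treg-depleted tumor (left) and the control tumor (right). The dotted line marks 0.1% and the dashed line 0.5%, and 3.16% of the Treg-depleted and 32.3% of the control barcodes lie beyond the dashed line with at least 10 C1q UMIs.

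Depth and free RNA differed between the libraries and moved with these shares. The libraries held 23291061 UMIs in the Treg-depleted and 42493416 UMIs in the control tumor. C1q-high barcodes had a median of 5257.5 UMIs and 1660 genes in the Treg-depleted tumor and of 10260.5 UMIs and 2553.5 genes in the control tumor, and C1q-low barcodes had 3697 and 5262 UMIs. Near-empty barcodes of 1 to 50 UMIs, which hold free RNA, carried 0.114% C1q in the Treg-depleted and 0.596% in the control tumor. The value of the control tumor is above the member threshold of 0.5%. The part of free RNA in the members near the threshold was not tested. C1q was also read in barcodes of cell types that should lack it. Those with at least 4 neutrophil markers in the Treg-depleted tumor (79 barcodes, median 2177 UMIs) had 0.0196% C1q and no member among them, and those with at least 3 plasmacytoid dendritic cell (DC) markers in the control tumor (91 barcodes, median 5185 UMIs) had 0.150% C1q with 3 members among them and 0.0583% without these. After every barcode was thinned to 2000 UMIs, C1q-high barcodes were 4.46% of the Treg-depleted and 33.1% of the control barcodes. The tumors shared 36 kept barcode sequences, against 26.7 expected by chance, and no barcode was C1q-high in both.

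All 3 chains were counted together in nearly every C1q-high barcode, in 138 of 140 (98.6%) of the Treg-depleted and 1431 of 1436 (99.7%) of the control tumor. C1qa, C1qb and C1qc gave 27.0%, 45.5% and 27.5% of the C1q UMIs in the Treg-depleted tumor and 31.3%, 41.8% and 26.9% in the control tumor. The proportions of the chains were thus alike in the 2 tumors, and the order, with C1qb first, was the same. Summed over the C1q-high barcodes and given as CPM, the share of the group's UMIs scaled so that all genes together sum to the same total in each group, C1q reached 6987 CPM in the Treg-depleted and 11264 CPM in the control tumor.

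The label was then checked against the other macrophage markers, each set beside the C1q-low barcodes of the same tumor. Apoe had 418 CPM in C1q-high against 138 CPM in C1q-low barcodes of the Treg-depleted tumor, and 5965 against 1629 CPM in the control tumor. Ms4a7 had 161 against 35.2 CPM in the Treg-depleted tumor and 728 against 75.2 CPM in the control tumor. Both markers were thus higher in the C1q-high barcodes of each tumor, and lower in the Treg-depleted than in the control C1q-high barcodes. Mertk, a receptor for dying cells, was scarce, with 13.2 against 2.66 CPM and 7.75 against 1.04 CPM. Csf1r, the receptor for the macrophage growth factor CSF1, differed little, with 198 against 157 CPM and 233 against 199 CPM. The tetraspanin Cd81 had 40.9 against 14.5 CPM in the Treg-depleted and 248 against 48.6 CPM in the control tumor, and Trem2, a lipid-sensing receptor, had 115 against 50.7 CPM and 302 against 52.6 CPM.

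Summed over the 13 macrophage markers other than the C1q genes, the level was 5215 CPM in C1q-high against 2765 CPM in C1q-low barcodes of the Treg-depleted tumor, and 12067 against 4221 CPM in the control tumor. The 10 classical monocyte markers summed to 4708 CPM in the C1q-high barcodes of the Treg-depleted and 1471 CPM in those of the control tumor. Of these 10, 5 were at least 2-fold higher in the Treg-depleted than in the control members, 4 lay within 2-fold and 1 was lower. Among 9689 genes, 7.29% were higher and 12% lower by as much. Chil3 alone gave 1733 and 62.1 CPM of the sums, while Hp was lower, at 3.96 and 17.2 CPM. Monocyte markers were therefore more abundant by sum in the Treg-depleted C1q-high barcodes, but not each of them, and much of that sum was Chil3. Ly6c2, a surface protein gene of inflammatory monocytes, stood at 750 and 322 CPM, Plac8 at 1456 and 787 CPM, and Ccr2, the receptor that draws monocytes out of marrow, at 146 and 117 CPM. By summed level, Apoe, Ms4a7, Pf4 and Trem2 were higher in the C1q-high barcodes of both tumors. In the Treg-depleted tumor few barcodes held these markers, since Apoe was counted in 51, Ms4a7 in 41 and Pf4 in 71 of 140 members, and the 14 richest members had 81.1%, 68.9% and 78.3% of their UMIs. The median Treg-depleted member had no UMI of Trem2. In the control tumor Apoe was counted in 1391, Ms4a7 in 1098 and Pf4 in 923 of 1436 members. Support for the macrophage label outside C1q was thus spread over a smaller part of the Treg-depleted members.

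**Figure D2:**
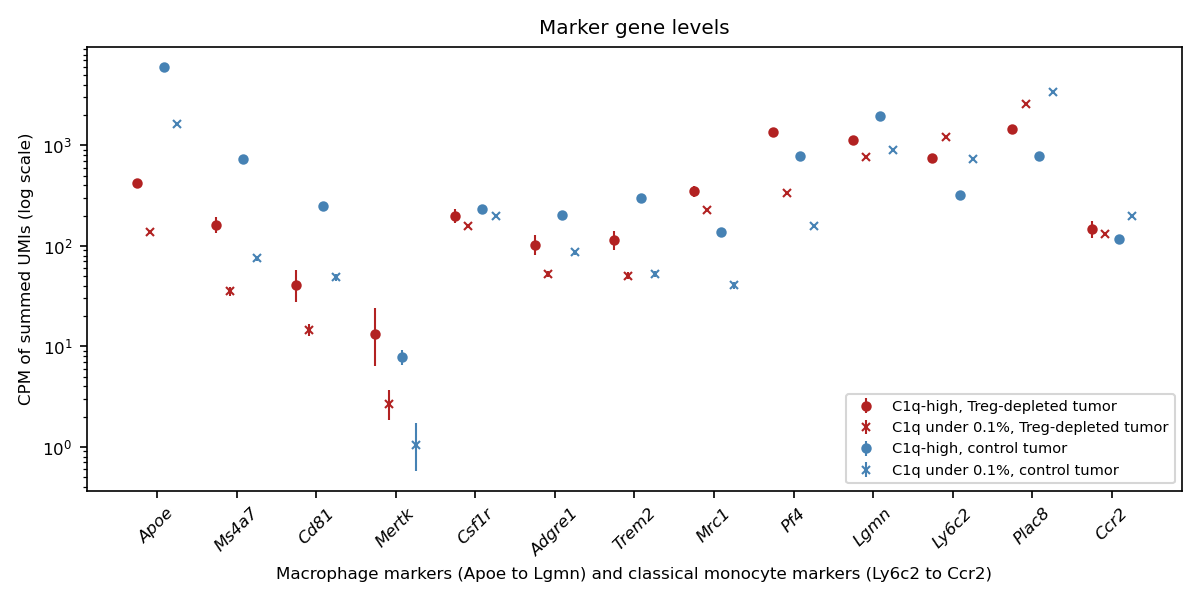
Level of 10 macrophage and 3 classical monocyte markers (CPM of summed UMIs, log scale, with exact Poisson 95% intervals) in C1q-high (circles) and C1q-low (crosses) barcodes of the Treg-depleted (red) and the control tumor (blue). Apoe stands at 418 CPM in the Treg-depleted and 5965 CPM in the control C1q-high barcodes, while Ly6c2 stands at 750 and 322 CPM.

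Lymphocyte markers, of cells that the sort should have removed, were at or near 0. In C1q-high barcodes of the Treg-depleted tumor, all 6 B cell markers, 6 of 7 T cell markers (Cd3d, Cd3e and Cd3g among them) and 6 of 7 NK cell markers had 0 UMIs. In those of the control tumor, the T cell list summed to 2.49 CPM, the NK cell list to 2.21 CPM and the B cell list to 6.96 CPM. Neutrophil markers summed to 48.8 CPM in the Treg-depleted and 25.9 CPM in the control C1q-high barcodes, against 1512 and 279 CPM in the C1q-low barcodes. Melanoma markers, of cells that lack CD45, summed to 29.0 CPM in Treg-depleted and 35.6 CPM in control members, against 85.5 and 14.1 CPM in the C1q-low barcodes. In the control tumor 4 of 5 of them with at least 20 UMIs were 2-fold or more higher in C1q-high barcodes, and in the Treg-depleted tumor 4 of 5 were lower. Their part in the results was not tested. Dendritic cell markers were counted in both tumors. At least 3 of the 8 type 1 DC markers were counted in 18 of 140 Treg-depleted members (12.9%) and 413 of 1436 control members (28.8%). That list summed to 746 and 714 CPM, most of it from Naaa (369 and 280 CPM) and Irf8 (307 and 371 CPM), while its defining marker Xcr1 had 0 UMIs in Treg-depleted and 4.13 CPM in control members. At least 3 markers of CCR7 DCs, mature dendritic cells, were counted in 0 of 140 Treg-depleted members, which allows a share of up to 2.60% at 95%, and in 104 of 1436 control members (7.24%), and at least 3 of the type 2 DC list in 1 (0.714%) and 134 (9.33%). Foxp3, which marks regulatory T cells, was counted 0 times in C1q-high barcodes of either tumor. In these barcodes 3 counts stand for 3.96 CPM in the Treg-depleted and 0.170 CPM in the control tumor.

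Within the control tumor, Ccl8, Igf1, Ccl12 and Vcam1 were among the genes with the largest ratios of C1q-high to C1q-low barcodes, and S100a8, S100a9 and Chil3 among those with the smallest. Among the 2731 genes, C1qa, C1qb and C1qc left out in every comparison, that reached 50 CPM and 100 UMIs in whichever group was higher, 87 (3.19%) were higher by 2-fold or more in the C1q-high barcodes and 135 (4.94%) were lower by as much. The groups were cut from 1 library by C1q itself, so these ratios describe them and no test was made. The largest ratio outside the C1q genes was that of Ccl8, a chemokine for monocytes and lymphocytes, with 1261 CPM in C1q-high against 41.4 CPM in C1q-low barcodes (log2 ratio 4.93, counting interval 4.81 to 5.05). Ccl12, a mouse monocyte chemokine, had 690 against 108 CPM (2.68, 2.60 to 2.76). Igf1, a growth factor made by tissue macrophages, had 67.5 against 5.46 CPM (3.63, 3.30 to 3.98). Vcam1, an adhesion molecule for leukocyte integrins, had 160 against 22.5 CPM (2.83, 2.66 to 3.00), and Hpgds, the prostaglandin D2 synthase of hematopoietic cells, had 71.7 against 10.3 CPM (2.80, 2.55 to 3.05). Timp2, an inhibitor of metalloproteinases, Gdf15, a cytokine of the TGF-beta family, Serpinb6a, a serine protease inhibitor, and Cadm1, an adhesion molecule, lay between log2 2.54 and 3.26.

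Among the genes lowest in C1q-high barcodes of the control tumor, S100a8 and S100a9, calcium-binding proteins of neutrophils and early monocytes, had 5.09 and 2.72 CPM in C1q-high against 128 and 113 CPM in C1q-low barcodes. Chil3, a chitinase-like gene of monocytes, had 62.1 against 663 CPM (log2 -3.42, -3.51 to -3.33). Hp, haptoglobin, had 17.2 against 226 CPM. Ly6d, Cd7 and Klrd1, with log2 ratios of -5.75, -3.94 and -2.89, were genes that plasmacytoid or type 2 DC lists hold. With barcodes that carried at least 3 markers of another cell type taken out of the C1q-low group, these 3 ratios turned to 0.76, 1.10 and 0.40. The 3 genes are on the lists used for that removal, and members with such markers were kept. The turn was therefore in part fixed by the rule, and no conclusion is drawn from it.

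The gene lists, chosen with earlier results of these data known, were read as counts of members with at least 20 UMIs in either group, against 6.95% higher and 6.25% lower among 10534 such genes with a median log2 ratio of 0.04. Of the other complement genes in the control tumor, 5 of 17 were at least 2-fold higher and 1 lower in C1q-high barcodes (median 0.20). C3ar1, the receptor for the C3a fragment, had 284 against 135 CPM (1.07) and Cd93 had 106 against 41.1 CPM (1.36), whereas C3 itself had 50.9 against 57.6 CPM (-0.18) and C5ar1, the C5a receptor, 370 against 355 CPM (0.06). Of 18 genes for the uptake of dying cells and scavenging, 7 were higher and 2 lower (median 0.60). Gas6, a ligand that bridges dying cells to TAM receptors, had 33.4 against 1.04 CPM (5.01, 4.28 to 5.86), and its receptors Mertk and Axl had log2 ratios of 2.90 and 1.68. Stab1, a scavenger receptor, had 59.6 against 11.7 CPM (2.35), and Mrc1, the mannose receptor, 137 against 40.3 CPM (1.76).

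Of 22 lipid handling genes, 9 were higher and 1 lower in the control C1q-high barcodes (median 0.74). Trem2 had a ratio of 2.52, Cd63, a late endosome tetraspanin, 2.09 with 1046 against 246 CPM, and Nr1h3, which codes for the sterol sensor LXR alpha, 1.79 with 46.7 against 13.5 CPM. Spp1, osteopontin, did not share this, with 1020 against 1081 CPM (-0.08). Of 25 lysosome genes, 6 were higher and 0 lower (median 0.61), among them the proteases Ctsd (1295 against 435 CPM, 1.57), Ctsb (3658 against 1684 CPM, 1.12) and Lgmn (1970 against 899 CPM, 1.13). Of 11 iron genes, 4 were higher and 0 lower (median 0.60).

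MHC class II genes, which present antigen to CD4+ T cells, were at like levels in the 2 groups of the control tumor. None of 10 was at least 2-fold higher and 3, H2-DMb2, H2-Oa and H2-Ob, were lower (median -0.11), with H2-Ab1 at 9722 CPM in C1q-high against 10181 CPM in C1q-low barcodes and Cd74 at 21323 against 22661 CPM. Of 28 interferon response genes, 0 were higher and 7 lower (median -0.56), as with Ifi47 at 131 against 427 CPM (-1.71). Of 20 inflammatory mediators, 0 were higher and 2 lower (median -0.35), with Il1b at 2181 against 5494 CPM (-1.33). Il10, an anti-inflammatory cytokine, stood apart with 119 against 41.3 CPM (1.52, 1.39 to 1.66). Cell cycle genes were 11 of 21 at least 2-fold higher and 0 lower (median 1.02), yet the list summed to 2669 CPM in C1q-high and 3057 CPM in C1q-low barcodes, and the abundant H2afz was lower, at 1802 against 2345 CPM. The median was 0.05 without the deep members described below and 2.41 against C1q-low barcodes without other cells' markers.

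In the Treg-depleted tumor the same comparison gave fewer genes past 2-fold on the high side than on the low side. Of 1953 genes past the filter, 12 (0.614%) were higher by 2-fold or more in C1q-high than in C1q-low barcodes and 116 (5.94%) were lower by as much. This balance depends on the filter, since 100 UMIs stand for 132 CPM in these C1q-high barcodes and for 7.61 CPM in the C1q-low barcodes, and without a filter 1005 genes were higher and 855 lower. The 12, with the C1q genes left out, were Ccl12, Ms4a7, Pf4, Ccl8, Apoe, Sepp1, Retnla, Aif1, Blvrb, Lair1, Il18bp and Ccl24. Ccl12 had 2049 against 270 CPM (log2 2.93, 2.84 to 3.01), Pf4, a platelet-type chemokine also made by macrophages, 1355 against 334 CPM (2.02, 1.92 to 2.12), and Ccl8 3277 against 918 CPM (1.84, 1.77 to 1.90). Sepp1, a selenium transport protein gene, had 156 against 51.5 CPM (1.59), and Aif1, a macrophage cytoskeleton gene, 1007 against 426 CPM (1.24). Of 1816 genes tested in both tumors, 53 were past 2-fold on the same side in both and 0 on opposite sides. Since only 12 genes were on the high side in the Treg-depleted tumor, most of the 53 were lower in C1q-high barcodes. S100a8, S100a9 and Hp were among these. The tumors differed in some of the genes that marked the control members. Vcam1 had 23.7 against 24.7 CPM (-0.06, -0.83 to 0.62) and Gdf15 14.5 against 14.0 CPM (0.05, -0.98 to 0.92) in the Treg-depleted tumor, where Igf1, with 8 UMIs, had 10.6 against 3.58 CPM (1.56, 0.27 to 2.66).

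Inflammatory genes were lower in the C1q-high barcodes of the Treg-depleted tumor. Of 20 mediators, 0 were at least 2-fold higher and 10 lower (median -0.99), against 4.23% higher and 9.26% lower among 9455 genes with a median of -0.05. Il1b had 589 CPM in C1q-high against 2632 CPM in C1q-low barcodes (-2.16), Tnf 98.9 against 466 CPM (-2.24) and Ptgs2, the inducible cyclooxygenase, 185 against 654 CPM (-1.83). Of 19 chemokines, 4 were at least 2-fold higher and 8 lower (median 0.08). Ccl3 (207 against 969 CPM, -2.23), Ccl4 (1065 against 2737 CPM, -1.36) and Cxcl2 (1992 against 5466 CPM, -1.46) were lower, while Ccl7 (4289 against 2443 CPM, 0.81) and Ccl2 (4118 against 2700 CPM, 0.61) stayed within 2-fold. The neutrophil lists that mark C1q-low barcodes, given above, moved with these values, and their part was not tested.

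Levels were next followed along the C1q share itself. In the control tumor Apoe had 1629 CPM in barcodes under 0.1% C1q, 3432 CPM at 0.4 to 0.5%, 4028 CPM at 0.6 to 1%, 6069.9 CPM at 1 to 1.5%, 9306 CPM at 1.5 to 2% and 13671 CPM at 2% and over. Ms4a7 ran from 75.2 CPM to 1736 CPM over the same bins and Cd81 from 48.6 to 469.9 CPM. No step was seen at 0.5%, where Apoe had 3432 CPM just outside and 3199 CPM just inside. Il1b ran the other way, with 5494 CPM in the lowest and 888 CPM in the highest bin, as did Plac8 with 3371 and 196 CPM. Cd74 stayed between 20154 and 23593 CPM in every bin. In the Treg-depleted tumor Apoe had 138, 107, 119, 143, 239.8 and 436 CPM in the bins up to 0.6 to 1%, and Pf4 334, 942, 799.7, 852, 2004 and 1016 CPM. These are summed levels. Over the 140 single Treg-depleted members, the Spearman correlation with the C1q share was -0.01 for Apoe and -0.10 for Ms4a7. Over the control members it was 0.35 and 0.42. The 13 Treg-depleted barcodes above 1% were too few for a level by bin, with 10 at 1 to 1.5%, 1 at 1.5 to 2% and 2 above.

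**Figure D3:**
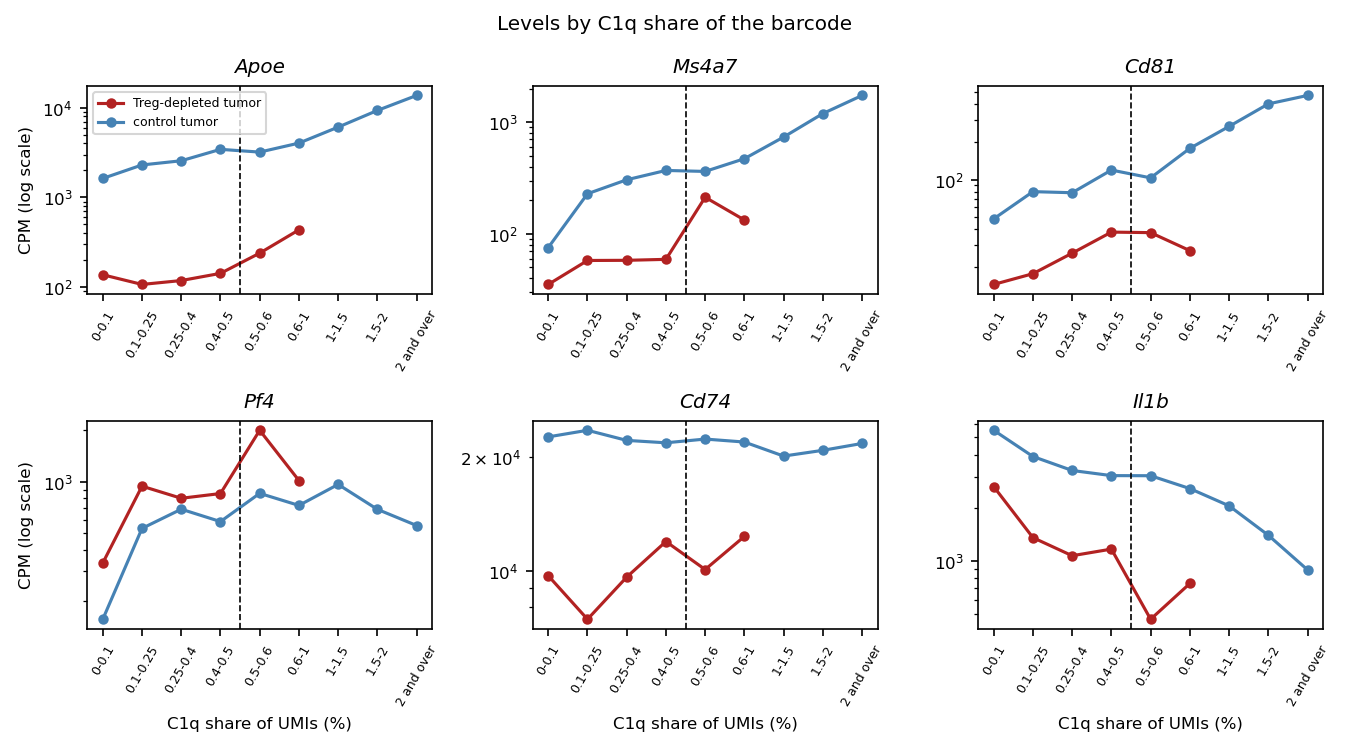
Level of 6 genes (CPM of summed UMIs, log scale) in barcodes binned by their C1q share of UMIs (percent), for the Treg-depleted (red) and the control tumor (blue), with bins under 20 barcodes left out and the dashed line at the member threshold of 0.5%. In the control tumor Apoe runs from 1629 to 13671 CPM and Il1b from 5494 to 888 CPM, while Cd74 stays between 20154 and 23593 CPM.

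The C1q-high barcodes of the Treg-depleted tumor were then set beside those of the control tumor. They had more RNA of Ccl24, Arg1, Retnla and Chil3, and less RNA of Apoe and Ms4a7. Of 2122 genes past the filter, 103 (4.85%) were higher by 2-fold or more in the Treg-depleted members and 168 (7.92%) were lower by as much. This balance too depends on the filter, since 100 UMIs stand for 132 CPM in the Treg-depleted and 5.66 CPM in the control members, and without a filter 1301 genes were higher and 1137 lower. Each group is 1 library, so the intervals cover counting error only and the genotype, the depletion and the library cannot be told apart. The ratio between the C1q-low barcodes of the Treg-depleted and the control tumor stands beside many of these genes. In that comparison 218 of 2754 genes past the filter (7.92%) were higher and 146 (5.3%) lower by 2-fold or more.

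Ccl24, an eosinophil chemokine of alternatively activated macrophages, had 8089 CPM in Treg-depleted and 35.3 CPM in control members (log2 7.84, 7.72 to 7.96), with a ratio of 6.47 between the C1q-low barcodes. Arg1, which breaks down arginine, had 6842 and 281 CPM (4.61, 4.55 to 4.66), with 4.76 between C1q-low barcodes. Retnla, a resistin-like gene induced by interleukin 4, had 1697 and 59.3 CPM (4.84, 4.72 to 4.96), with 4.75 between C1q-low barcodes. For these 3 genes the C1q-low barcodes of the same tumors differed in the same direction and by a similar order. Chil3 had 1733 and 62.1 CPM (4.80, 4.69 to 4.92), with 1.96 between C1q-low barcodes. The arginine transporter gene Slc7a2 had 237 and 13.5 CPM (4.14), and Nos2, the inducible nitric oxide synthase, 189 and 12.7 CPM (3.89). Pdcd1lg2, which codes for the checkpoint ligand PD-L2, had 208 and 27.6 CPM (2.92). Ccl17, a chemokine for type 2 T cells, had 646 and 57.4 CPM (3.49), and under the rule of 1% and 20 UMIs this ratio turned to -0.65. Between C1q-low barcodes the ratios were 5.06 for Slc7a2, 4.32 for Nos2, 2.12 for Pdcd1lg2 and 4.19 for Ccl17. Those of Slc7a2, Nos2 and Ccl17 were thus larger between C1q-low barcodes than between members.

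Every barcode was thinned to 1000 UMIs, and the share of barcodes with a UMI of a gene was counted. These shares were read beside those of the neutrophil- or plasmacytoid DC-marked barcodes, taken as background. Arg1 was found in 82.9% of Treg-depleted members (92.1% unthinned) and in 24.1% of the neutrophil-marked barcodes of that library, and in 13.6% of control members (28.4% unthinned) and 1.10% of the plasmacytoid DC-marked barcodes of the control library. Ccl24 was found in 70.7% (84.3% unthinned) against 27.8% in the Treg-depleted and in 1.95% (8.64% unthinned) against 0% in the control tumor. Retnla was found in 20.7% (33.6% unthinned) against 8.86% in the Treg-depleted tumor. In the C1q-low barcodes of the Treg-depleted tumor, Arg1 was found in 64.9%, Ccl24 in 57.3% and Retnla in 12.65% after thinning. Arg1 and Ccl24 were thus common in Treg-depleted members and above their share in the neutrophil-marked barcodes, while Retnla RNA was held by few members. Arg1 and Ccl24 were also common in the C1q-low barcodes of that tumor, so they were not particular to the members. Whether the neutrophil-marked barcodes make some of this RNA themselves was not tested.

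Some genes passed the filter only through the control members, where they were high, so that a low value in the Treg-depleted members follows in part from the filter. The ratios of Ccr7, Il10 and Cadm1 rest on 1 to 3 UMIs. Ccr7, the homing receptor of mature DCs, had 1 UMI (1.32 CPM) in Treg-depleted and 141 CPM in control members (log2 -6.74, -12.05 to -4.26), and CCR7 DC markers were counted together in 7.24% of the control members as given above. The Ccr7 ratio ran from -6.82 to -0.53 over the alternatives, that of Il10 from -6.47 to -1.34 and that of Cadm1 from -5.64 to -1.13, each smallest in size with members at 1% and 20 UMIs. Il10 had 3 UMIs (3.96 CPM) and 119 CPM (-4.91, -7.19 to -3.36), with -3.00 between C1q-low barcodes. Cadm1 had 2 UMIs (2.64 CPM) and 74.5 CPM (-4.82, -7.87 to -2.96), with -0.95 between C1q-low barcodes. Gdf15 had 14.5 and 155 CPM (-3.41, -4.42 to -2.57) and Hpgds 7.91 and 71.7 CPM (-3.18, -4.63 to -2.05), with -0.80 and -0.72 between C1q-low barcodes. The neutrophil chemokine Cxcl1 had 55.4 and 623 CPM (-3.49) and Acp5, the tartrate-resistant phosphatase of macrophages and osteoclasts, 15.8 and 121 CPM (-2.93).

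Apoe had 418 CPM in Treg-depleted and 5965 CPM in control members (log2 -3.84, -4.00 to -3.68), with -3.56 between C1q-low barcodes. Free RNA moved with it, with Apoe at 171 CPM in near-empty barcodes of the Treg-depleted and 4547 CPM in those of the control tumor, and its part in the level was not tested. After thinning, Apoe was found in 20% of Treg-depleted members (36.4% unthinned) against 1.27% of neutrophil-marked barcodes, and in 80.9% of control members (96.9% unthinned) against 33.0% of plasmacytoid DC-marked barcodes. Apoe RNA was also unevenly held in the Treg-depleted tumor. The 14 Treg-depleted members richest in it had 81.1% of its 317 UMIs, whereas the richest 10% of control members had 39.5%. The ratio was -2.77 with members at 1% and 20 UMIs, -2.58 as a mean over barcodes, -4.59 with members chosen after thinning and -4.69 with members at 0.25% and 5 UMIs. Ms4a7 followed Apoe, at 161 and 728 CPM (-2.18, -2.45 to -1.92), while the factor gene Maf (204 and 62.4 CPM, 1.71) was higher in the Treg-depleted members.

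By list, read against 7.29% higher and 12% lower among 9689 genes with a median of -0.10, alternative activation genes were 9 of 19 at least 2-fold higher and 5 lower in the Treg-depleted members (median 0.99). The lower members were Il10, Ccl22, Cbr2, Sepp1 and Igf1. Between the C1q-low barcodes of the Treg-depleted and the control tumor the same list had 11 of 20 higher and 3 lower (median 1.37). Hypoxia and glycolysis genes were 7 of 19 higher and 0 lower (median 0.73), among them Bnip3, a mitophagy gene (294 and 97.1 CPM, 1.60), Ero1l (278 and 78.6 CPM, 1.82) and Egln3, an oxygen sensor (42.2 and 6.34 CPM, 2.74). Between the C1q-low barcodes of the Treg-depleted and the control tumor, 9 of 19 of these genes were higher and 0 lower (median 0.99), against 9.69% higher and 7.6% lower among 10307 genes.

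Cell cycle genes were 0 of 20 higher and 15 lower in the Treg-depleted members (median -1.56, with genes at 0 UMIs set to 3 counts), with Stmn1 at 47.5 and 175 CPM (-1.88) and H2afz at 876 and 1802 CPM (-1.04). The C1q-low barcodes had 0 of 21 higher and 3 lower (median -0.50). After thinning to 1000 UMIs, at least 3 UMIs of the list were counted in 16.4% of the Treg-depleted members (10.7 to 23.6%) and 37.9% of the control members (35.4 to 40.4%), and in 22.1% of the Treg-depleted and 38.6% of the control C1q-low barcodes. The median over the list between the members ran from -1.67 to -0.38 over the alternatives, with -0.38 for members at 1% and 20 UMIs. Lysosome genes were 0 of 24 higher and 7 lower (median -0.73), with Ctsd at 659 and 1295 CPM (-0.97), against a median of -0.24 in C1q-low barcodes.

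MHC class II genes were 0 of 10 higher and 3 lower (median -0.98), with Cd74 at 11864 CPM in Treg-depleted and 21323 CPM in control members (-0.85) and -1.22 between C1q-low barcodes. Complement genes other than C1q were 2 of 16 higher and 1 lower (median -0.07). C3 had 132 and 50.9 CPM (1.37) and Itgam, the alpha chain of complement receptor 3, 295 and 119 CPM (1.31), while Cd93 had 27.7 and 106 CPM (-1.93). Scavenger genes were 2 of 18 higher and 5 lower (median -0.58), with Cd36, a fatty acid and lipoprotein receptor, at 493 and 167 CPM (1.57) and Axl at 51.4 and 105 CPM (-1.03). Interferon response genes were 3 of 28 higher and 1 lower (median 0.33), with Cxcl9, an interferon gamma target that attracts T cells, at 231 and 587 CPM (-1.35). Fc receptor genes were 0 of 6 higher and 1 lower (median 0.01).

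Of 20 chemokines, 6 were at least 2-fold higher and 4 lower in the Treg-depleted members (median 0.39), against 12 of 19 higher and 2 lower between the C1q-low barcodes (median 1.14). Among those that attract monocytes, Ccl8 had 3277 and 1261 CPM (1.38, 1.32 to 1.44), Ccl12 2049 and 690 CPM (1.57, 1.49 to 1.65), Ccl2 4118 and 1890 CPM (1.12) and Ccl7, short of 2-fold, 4289 and 2182 CPM (0.98). The ratios between the C1q-low barcodes were 4.47 for Ccl8, 1.32 for Ccl12, 1.41 for Ccl2 and 1.77 for Ccl7. The share of barcodes with Ccl8 was nevertheless alike, 30.7% of Treg-depleted members (48.6% unthinned) and 31% of control members (57.3% unthinned) after thinning, with 12.7% and 6.59% in the marked background barcodes. The 14 Treg-depleted members richest in Ccl8 held 82.4% of its UMIs, and the richest 10% of control members 68.2%.

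**Figure D4:**
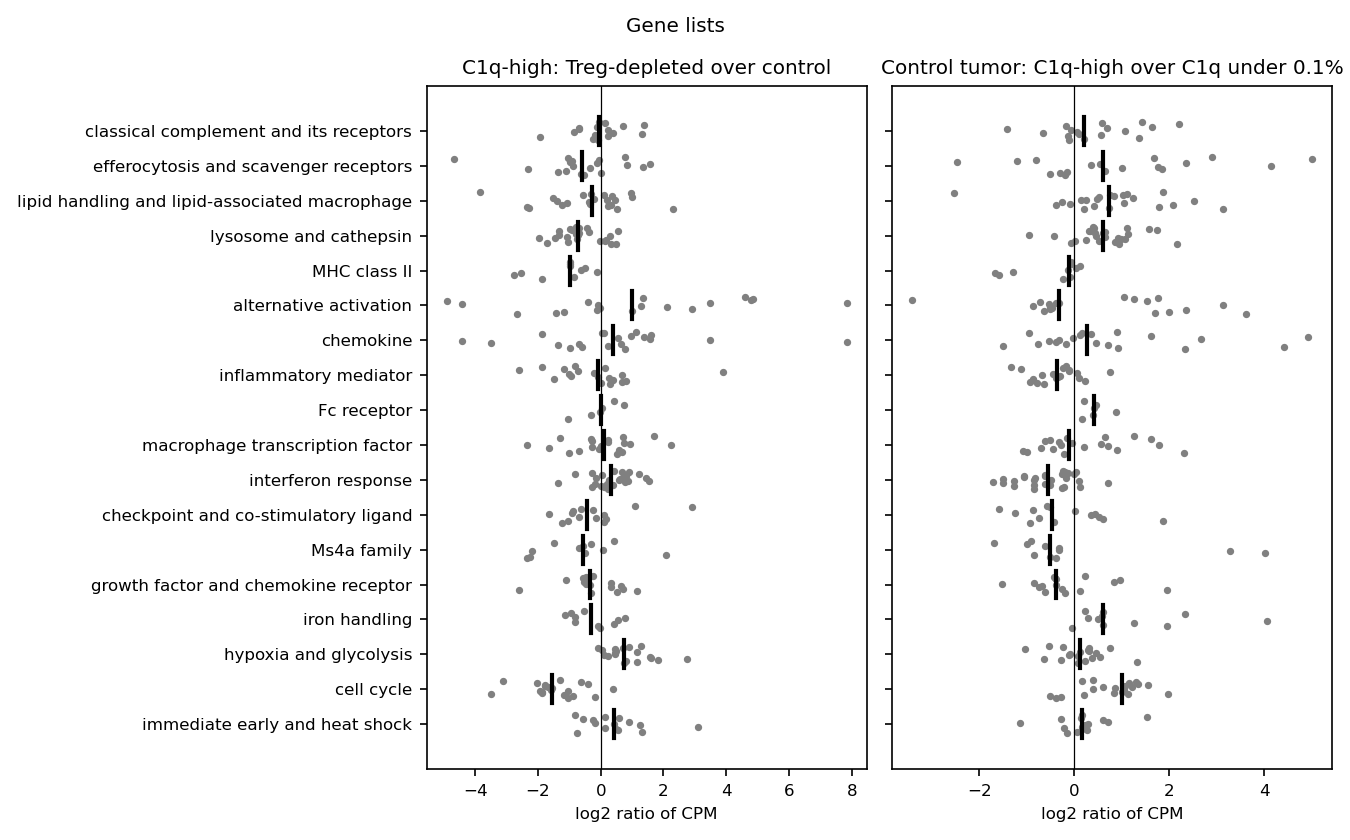
Log2 ratio of CPM for the genes of 18 lists (grey points, genes with at least 20 UMIs in either group) and the median of each list (black bar), for Treg-depleted over control C1q-high barcodes (left) and for C1q-high over C1q-low barcodes of the control tumor (right). The cell cycle median lies at -1.56 on the left and 1.02 on the right, and the lysosome median at -0.73 and 0.61.

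Members also differed among themselves. They were clustered within each tumor with the C1q and mitochondrial genes left out, which gave 4 clusters in the Treg-depleted and 7 in the control tumor. The clusters are named by number and leading genes, which are not findings. In the Treg-depleted tumor cluster 1 (51 barcodes) was led by Retnla, Ear2 and Rnase2a and had Ccl8 at 5742 CPM. Cluster 2 (39) was led by Ccl17, Plet1 and Cxcl9 and had the most Apoe, 912 CPM. Cluster 3 (32) was led by Ifit3, Cxcl3, Cxcl1 and Il1b, with Ccl12 at 4857 CPM, and cluster 4 (18) by Lepr, Fabp4, Hspa1a and Hspa1b, with Ms4a7 at 437 CPM, Nos2 at 723 CPM and Mmp12 at 1987 CPM. Arg1 was abundant in all 4, between 2069 and 9754 CPM. Retnla was not, with 4084 CPM in cluster 1 and 11.1 CPM in cluster 3.

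In the control tumor cluster 1 (297 barcodes) was led by the monocyte genes Chil3, Ly6c2 and Plac8 and had 0.976% of its UMIs from C1q. Cluster 2 (250) was led by Gbp2b, Cd72 and Cxcl9, cluster 3 (245) by Mmp12, Arg1 and Il1a with Spp1 at 2377 CPM, and cluster 6 (149) by Ifit3, Ifit1 and Rsad2. Cluster 4 (238) was led by cell cycle genes such as Ube2c, Birc5 and Top2a together with Igf1 and Gas6. It also had the highest C1q (1.51% of UMIs), Apoe (9877 CPM), Ms4a7 (1076 CPM) and Cd81 (516 CPM) of the 7, and the lowest Ly6c2, 75.2 CPM. Cluster 5 (195) was led by Ccl17, Ccr7, Fscn1, Il12b and Ccl22, genes of mature DCs, with a median of 22262 UMIs. Its 16 macrophage markers summed to 17819 CPM, the lowest sum of the 7 clusters. That sum includes the C1q genes, which chose the members and gave 0.859% of the cluster's UMIs, so it does not bear on the label. Cluster 7 (62) had a median of 1944.5 UMIs and was led by Slc39a1, Notch2 and Actb. Apoe was above 3156 CPM in every other control cluster and at that level in cluster 7, while none of the 4 Treg-depleted clusters passed 912 CPM.

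**Figure D5:**
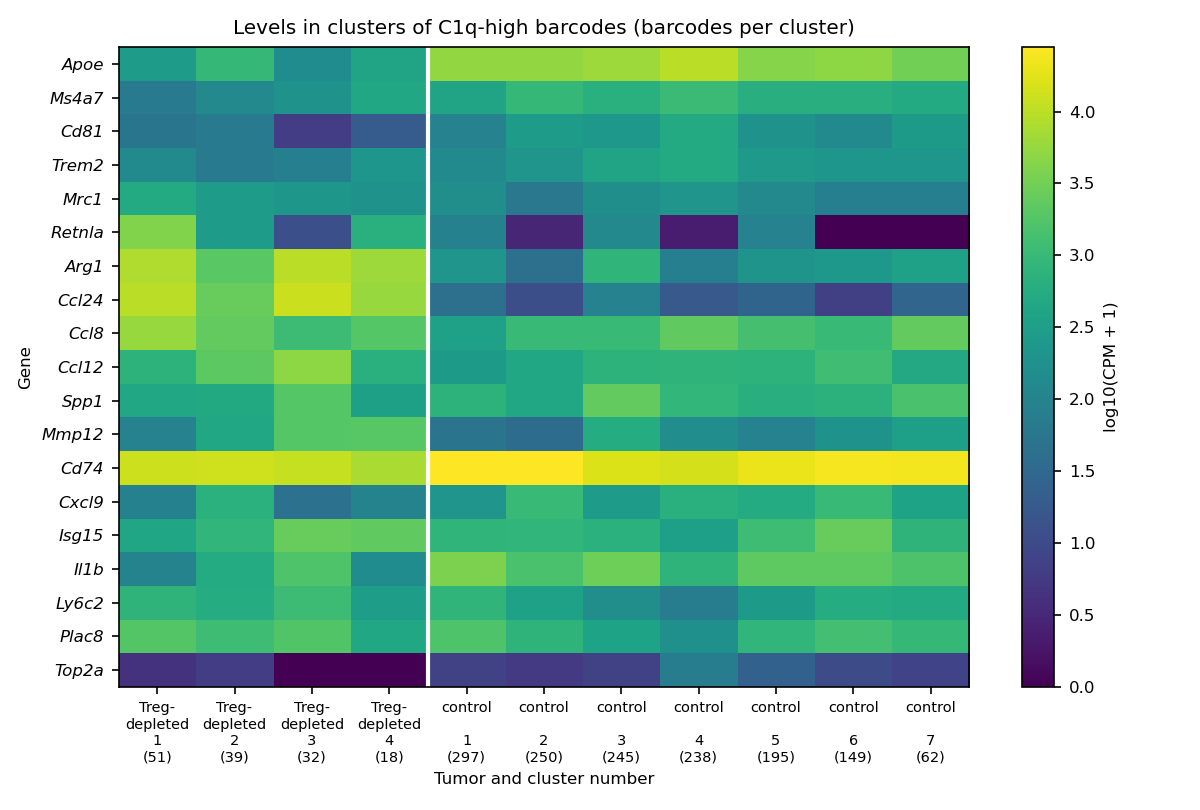
Level of 19 genes (colour, log10 of CPM + 1) in the clusters of C1q-high barcodes of the Treg-depleted (left of the white line) and the control tumor (right), with the number of barcodes in brackets. Apoe reaches 9877 CPM in control cluster 4 and 912 CPM in Treg-depleted cluster 2, and Arg1 reaches 9754 CPM in Treg-depleted cluster 3 and 820 CPM in control cluster 3.

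Deep barcodes and barcodes with other cells' markers were more common among the control members. More than 2 times the median UMI total of the library was held by 26 of 140 Treg-depleted and 522 of 1436 control members, and at least 3 markers of a CCR7, type 2 or plasmacytoid DC, neutrophil or lymphocyte list were counted in 1 (0.714%) and 190 (13.2%). With the type 1 DC list added, these were 19 (13.6%) and 481 (33.5%). A doublet score marked 0 of the Treg-depleted and 52 (3.62%) of the control members. Without the deep members, the shares were 2.59% of Treg-depleted and 23.3% of control barcodes, without the marked members 3.14% and 29.3%, and without those marked by any of these lists, type 1 DC included, 2.74% and 24.1%. The share stayed lower in the Treg-depleted tumor without them. The log2 ratio of Apoe between the members was -3.69 without the deep members, -3.99 without the marked members and -3.90 without those marked by any list.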

How the data were processed

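Raw UMI counts, deposited by the authors as 1 matrix per library, cover 27998 genes and 737280 barcodes and were made with Cell Ranger 1.2 against mm10 per the submitters' processing notes. No normalization had been applied. Members, gene lists and comparisons were chosen with earlier results of these data known. Counts were summed over barcodes and divided by their total (CPM), with exact Poisson intervals for levels, exact binomial intervals for ratios and Clopper-Pearson intervals for shares, all at 95% and for counting error only. In ratios, a gene with no count was given 3 counts for the whole group. With 1 library per group no p-value was computed. The named genes were, per comparison, the 12 highest and 12 lowest ratios at 50 CPM and 100 UMIs, some of which the text leaves out, and the genes of 16 marker and 18 function lists (416 of 422 found) with at least 20 UMIs. Levels between genes are not per length, since 3' counting gives 1 tag per molecule. Overlapping genes and close relatives such as Ifit, Gbp and Hspa1 genes can share reads. Doublets were kept in the main values and removed by scrublet score as an alternative (157 of 4434 Treg-depleted and 158 of 4443 control barcodes). Clusters used 1000 variable genes, 15 components, 15 neighbours and Leiden resolution 0.5, with the 12 leading genes of each taken at 50 CPM, of which the text names some. Results on some genes are not reported here. Gene positions came from GENCODE M21, which held 27645 of the gene identifiers, and promoters from RefSeq. Python 3.11.15, numpy 2.4.6, scipy 1.17.1, pandas 2.3.3, scanpy 1.11.5 and leidenalg 0.10.2 were used, and the ratio step was tested on simulated data.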

Additional observations from a re-analysis of the deposited data

Results flagged for a closer look

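In control blood, which the comparisons above do not use, 6 of 5550 kept barcodes (0.108%, exact 95% interval 0.0397 to 0.235%) also met the C1q rule, above the 0.0185% C1q of that library's near-empty barcodes. They had between 1504 and 7862 UMIs, C1q at 0.644 to 1.64% of UMIs and 409 Apoe UMIs (17397 CPM), with 0 UMIs of Ms4a7 and Ly6c2 and 4 of Cd5l, a gene of resident macrophages.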

How the results depend on the processing

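No paired analysis was possible because each group had 1 library and no replicate numbers. Leaving out a replicate was likewise not possible. Across the alternatives, 564 of 589 list medians kept their sign, and none of at least 1 in size changed sign, and 833 of 837 log2 ratios of named genes kept theirs. Sizes were less stable. Of the 589 list medians, 97 moved by more than the median counting error of their genes. Of the 837 ratios, 282 kept their sign but left their counting interval. The 4 ratios that reversed were Ccl17 between Treg-depleted and control members (-0.65 with members at 20 UMIs and 1%) and, with C1q-low barcodes free of other cells' markers in the control tumor, Ly6d (0.76), Cd7 (1.10) and Klrd1 (0.40). Ly6d, Cd7 and Klrd1 are themselves on the marker lists used for that removal, so their reversal was in part fixed by the rule. The member share moved to 34.2% in the control tumor with a UMI minimum scaled to the deepest barcodes of each library, to 0.271% (Treg-depleted) and 16.5% (control) at 1%, to 13.2% and 41.8% at 0.25%, to 4.46% in the Treg-depleted tumor after thinning to 2000 UMIs, and, in alternatives chosen after seeing the data, to 2.59% and 23.3% without deep members and in the control tumor to 29.3% without members that carried other cells' markers and to 24.1% with type 1 DC markers counted too. Counts of genes past the fold moved as follows, given as higher and lower. Members at 1% gave 6 and 370 in the Treg-depleted tumor against its C1q-low barcodes and 17 and 448 between Treg-depleted and control members. Members at 0.25% gave 72 lower and 192 higher for these. With all non-members as the low group, 6 genes were higher in Treg-depleted members and 48 in control members. A filter of 20 CPM and 40 UMIs gave 27 and 225 for the Treg-depleted tumor, 163 and 219 for the control tumor, and 165 and 366 between members. No filter gave 1005 and 855, 1239 and 1255, and 1301 and 1137 in the same order. A fold of 1.5 gave 63 and 322, 253 and 364, and 229 and 474, and a fold of 4 gave 3 and 29, 19 and 24, and 19 and 33. The other 98 of 140 counts and shares stayed within their limits. In the Treg-depleted members 3 counts equal 3.96 CPM, so ratios of genes at or under that level rest on at most 3 UMIs. Where a gene had no UMI there, its ratio rests on the 3 counts it was given.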
